A study of Rattus norvegicus with 24 samples.

Results

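The effect of aerobic treadmill training on the skeletal muscle transcriptome of rats with cardiac cachexia was read from 12 of the 24 libraries of the series. The 12 were chosen by their labels alone: the 6 exercised rats that had received monocrotaline (CC-Ex) and the 6 sedentary rats that had received it (CC-Sed). All 24 animals were male Wistar rats, and each library came from the left medial gastrocnemius of 1 rat. Monocrotaline, a plant alkaloid that injures the pulmonary vessels and leads to right heart failure, was given to both CC groups as a single injection, so by their labels the 12 rats differ in the training. The sedentary rats were not untouched by the treadmill, because every rat was familiarized with it and ran an incremental test to exhaustion before and after the training period. Only rats that survived and showed right ventricular remodelling were kept, so both CC groups are selected survivors. The other 12 rats received saline and were sedentary (Sed) or exercised (Ex), 6 in each group.

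Cardiac cachexia is the loss of body and muscle mass in advanced heart failure. In wasting muscle, FoxO factors and glucocorticoids are known to raise the ubiquitin ligases that mark myofibrillar proteins for the proteasome, while mitochondria and fat use are disturbed. Endurance training is known for the opposite side of this balance: it raises fat oxidation, capillary supply and mitochondrial content, in part through the coactivator PGC-1α. The comparison asks which transcripts differed when rats trained while the disease developed.

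The libraries were read as skeletal muscle. Of 12 skeletal muscle markers, 10 were in the count table, and their summed level was 130815 to 255182 CPM (counts scaled to the size of the library) in CC-Sed and 175823 to 279026 CPM in CC-Ex. The table keeps only genes with at least 10 counts in every library, and none of 8 neutrophil markers and 1 of 11 T and B cell markers were in it. Summed endothelial markers (15 of 17) were 360 to 555 CPM in CC-Sed and 345 to 489 CPM in CC-Ex. Summed fibroblast markers (11 of 12) were 1211 to 2997 CPM in CC-Sed and 653 to 2695 CPM in CC-Ex. In bulk muscle, fewer cells of a type and less RNA per cell cannot be told apart. The 12 libraries held 37816239 to 50350554 assigned counts, and the totals of the groups did not differ beyond their spread (two-sided exact permutation test, p = 0.297).

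One rat stood apart from the others. CC-Ex replicate 5 was the highest or the lowest of the 12 rats in 54.2% of the 10851 genes, against 26% for CC-Sed replicate 4, 25.3% for CC-Ex replicate 4 and 8.3 to 13.8% for the other 9 rats. On the first principal component of log2 CPM, which held 44.6% of the variance, it lay at 85.1, and the other 11 rats lay between -37.4 and 31.0. The mean position of CC-Ex on that component was -2.15 ± 43.9 (SD, n = 6), and that of CC-Sed was 2.15 ± 27.5 (SD, n = 6), a difference within the spread (two-sided exact permutation test, p = 0.883, with 0.00216 the smallest p that 6 against 6 rats allow). The median biological coefficient of variation over genes was 0.251 in CC-Sed and 0.298 in CC-Ex, and 0.210 in CC-Ex without replicate 5. It was 0.165 in Sed and 0.163 in Ex, so the saline rats were more alike. Results are given with all 12 rats, and many, though not all of those that move, are also given without CC-Ex replicate 5.

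**Figure D1:**
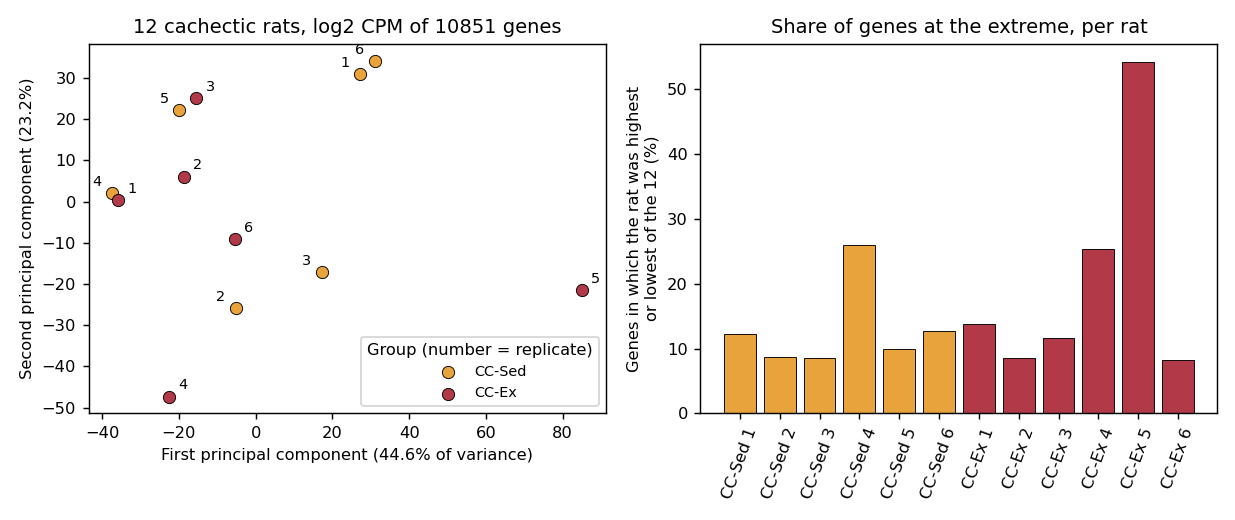
Left, the 12 cachectic rats on the first and second principal components of log2 CPM over 10851 genes, with points numbered by replicate and coloured by group; right, bars giving the percentage of genes in which each rat was the highest or lowest of the 12. CC-Ex replicate 5 lies alone at 85.1 on the first component and is extreme in 54.2% of genes.

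No gene passed the test for training. A differentially expressed gene (DEG) was one with a Benjamini-Hochberg adjusted p under 0.05 and a log2 fold change (Log2FC, CC-Ex minus CC-Sed) of at least 1 in size. In edgeR's quasi-likelihood test 0 of 10851 genes met it (0%), none had an adjusted p under 0.05, and the smallest adjusted p was 0.9998. At an unadjusted p under 0.05 there were 107 genes (0.986%), of which 46 were higher in CC-Ex (0.424%) and 61 lower (0.562%). If no gene differed, a share of about 0.05 of all genes would be expected at that p. The 107 genes are fewer than that, so this p only describes a gene and is not a finding. DESeq2 also gave 0 DEGs, with 158 genes at an unadjusted p under 0.05, and limma-voom with sample weights gave 0, with 633. Without CC-Ex replicate 5 edgeR again gave 0 DEGs, but the unadjusted count was 675 (6.22%), with 211 genes higher (1.94%) and 464 lower (4.28%), and the smallest adjusted p was 0.725. With all 12 rats the adjusted p of every gene was 0.9998 or more, so no gene named below passed the test in edgeR. Single genes are given with the 95% interval of their Log2FC, which covers 1 gene at a time and is not adjusted for the number of genes.

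The error behind this count can be given per gene. The median standard error of a Log2FC was 0.20, and the 95% interval reached a median of 0.44 to each side. For 9309 genes (85.8%) the whole interval lay between -1 and 1, so a difference as large as the DEG threshold was outside it. In the other genes the interval held values past that threshold. In the saline rats, where the same test of Ex against Sed also gave 0 DEGs (0%) and 379 genes at an unadjusted p under 0.05 (3.49%), 201 higher (1.85%) and 178 lower (1.64%), the median standard error was 0.12 and 94% of the intervals lay between -1 and 1.

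Myf6, a muscle regulatory factor of mature fibres, had the smallest p of all genes. Its level was 132 CPM in the lowest, 216 CPM at the median and 286 CPM in the highest CC-Sed rat, against 93.1, 122 and 171 CPM in CC-Ex. All 6 trained rats lay below the CC-Sed median, and the groups overlapped only through the lowest CC-Sed rat, at 132 CPM. The Log2FC was -0.77 (SE 0.20, 95% interval -1.21 to -0.34), and -0.82 without CC-Ex replicate 5 (95% interval -1.28 to -0.36). The saline rats had medians of 106 CPM in Sed and 97.5 CPM in Ex.

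The promoter of Myf6 is shown because this gene had the smallest p, and that of Flnc, described further on, because it was the most abundant of the lower genes named here with an unadjusted p under 0.05. Both come from the RefSeq promoter table on GRCr8, which holds 300 bases from 250 before to 50 after each start, and 34 of the 49 genes named here were in it. The Myf6 window, chr7:44701264-44701563 on the minus strand, is given with its MEF2 consensus match in capitals.
Myf6: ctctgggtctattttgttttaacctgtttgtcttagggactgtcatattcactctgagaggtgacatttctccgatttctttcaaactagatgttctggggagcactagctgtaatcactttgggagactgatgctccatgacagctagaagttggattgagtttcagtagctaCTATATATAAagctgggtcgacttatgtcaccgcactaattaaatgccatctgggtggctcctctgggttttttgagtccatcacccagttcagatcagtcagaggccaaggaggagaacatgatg
The Flnc window, chr4:58999297-58999596 on the plus strand, is given with an MCAT element (CATTCC) and a cAMP response element half-site (TGACG) in capitals.
Flnc: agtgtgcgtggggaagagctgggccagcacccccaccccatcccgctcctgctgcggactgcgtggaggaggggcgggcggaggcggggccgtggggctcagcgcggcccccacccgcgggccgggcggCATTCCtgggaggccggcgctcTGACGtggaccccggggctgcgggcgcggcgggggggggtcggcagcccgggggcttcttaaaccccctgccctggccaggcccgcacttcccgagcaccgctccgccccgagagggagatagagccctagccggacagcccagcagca
The MEF2 consensus was searched on both strands and was present in 3.29% of 33469 promoters. In Myf6 the match ran from -76 to -67 and overlapped a TATAAA box that began at -71, a motif that 8.8% of promoters held on the gene's own strand. CATTCC was present on either strand in 14.2% and TGACG in 21.2% of promoters, so neither is rare. Of the 34 matched genes, 3 had a MEF2 match: Myf6, Xirp1 (from -82 to -73 of the start with the nearest match) and the fast myosin heavy chain gene Myh4 (from -196 to -187). A match describes letters in a window and not a bound site.

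Nr4a3, an orphan nuclear receptor induced by contraction and by adrenergic signals, had the largest Log2FC among genes with an unadjusted p under 0.05. In CC-Sed it was 1.85 CPM in the lowest, 44.96 CPM at the median and 117 CPM in the highest rat. In CC-Ex the same values were 1.44, 5.07 and 12.1 CPM. Of the 6 CC-Sed rats, 5 lay above every trained rat, and CC-Sed replicate 2, at 1.85 CPM, lay among them. The Log2FC was -3.01 (SE 0.82), with a 95% interval from -4.79 to -1.23. DESeq2 gave this gene an adjusted p of 0.283. The saline medians were 3.16 CPM in Sed and 2.68 CPM in Ex.

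Genes of fat storage were mostly within the spread, and 1 of them was at an unadjusted p under 0.05. Of 20 measured triglyceride synthesis genes 9 had a positive and 11 a negative Log2FC, with a median of -0.05. Dgat2 was the 1 at that p, where 0.562% of all genes were lower. Of 12 measured lipolysis and lipid droplet genes 4 were positive and 8 negative, with a median of -0.19 and 0 at that p. Dgat2, which makes triglyceride from diacylglycerol, was 35.5, 95.4 and 160.4 CPM (lowest, median and highest) in CC-Sed and 26.3, 52.1 and 61.1 CPM in CC-Ex. All 6 trained rats were below the CC-Sed median, and only CC-Sed replicate 2 fell inside the CC-Ex range. Its Log2FC was -0.94 (SE 0.30, 95% interval -1.59 to -0.28), and -0.97 without CC-Ex replicate 5. Training in saline rats gave 0.49 (SE 0.35), with medians of 28.96 CPM in Sed and 31.7 CPM in Ex. The intracellular lipase Pnpla2 was 521 CPM at the CC-Sed median and 270.1 CPM at the CC-Ex median, but CC-Ex replicate 5 held 950.1 CPM, the highest of the 12. Its Log2FC was -0.33 (95% interval -1.44 to 0.78) with all rats and -0.90 (95% interval -1.84 to 0.04) without that rat. The lipid droplet protein Plin5 had a Log2FC of -0.64 (95% interval -1.53 to 0.25), with 5 of 6 trained rats below the CC-Sed median.

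Of 33 genes of mitochondrial and peroxisomal fatty acid oxidation, 32 were measured and 29 had a negative Log2FC. None passed the adjusted test, 4 had an unadjusted p under 0.05 on the lower side (0.562% of all genes) and 0 on the higher side (0.424%). With CC-Ex replicate 5 left out, 3 were lower at that p (4.28% of all genes in that fit), 0 were higher (1.94%) and 27 were negative. The median Log2FC of the list was -0.31, against 0.02 over all genes tested. Acadl, the long-chain acyl-CoA dehydrogenase, was 196, 509.9 and 631 CPM in CC-Sed and 191, 257 and 390.1 CPM in CC-Ex (Log2FC -0.75, SE 0.26, 95% interval -1.31 to -0.20). Again every trained rat was below the CC-Sed median and CC-Sed replicate 2 was the low sedentary rat. Decr1, the dienoyl-CoA reductase needed for unsaturated fats, had medians of 59.4 CPM in CC-Sed and 41.9 CPM in CC-Ex (Log2FC -0.72, 95% interval -1.32 to -0.13). Without CC-Ex replicate 5 the Log2FC of Decr1 was -0.58. Hadhb, the β-subunit of the trifunctional protein, had medians of 698 and 458 CPM (Log2FC -0.50, 95% interval -0.92 to -0.08), and the thiolase Acaa2 had 203 and 128 CPM (Log2FC -0.80, 95% interval -1.58 to -0.02). Nudt7, a peroxisomal hydrolase of coenzyme A that is not on the list, had a Log2FC of -1.05 (SE 0.30, 95% interval -1.69 to -0.42), with medians of 26.9 and 11.5 CPM.

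Slow-fibre transcripts differed between the pieces of muscle, and the lipid values are set beside them here. The mean log2 CPM of the fatty acid oxidation list was lowest in CC-Ex replicate 5 (5.95) and CC-Ex replicate 4 (5.99) and reached 7.12 in CC-Sed replicate 5. The same 2 trained rats had almost no slow-fibre transcript: the slow troponin gene Tnnc1 was 0.375 and 0.504 CPM in them, 9.31 CPM in CC-Sed replicate 2, and 112.4 to 1111 CPM in the other 9 rats. With the mean log2 CPM of 4 slow-fibre genes as a covariate, the Log2FC of Acadl was -0.55, that of Decr1 -0.55, that of Dgat2 -0.75 and that of Acaa2 -0.52. All 4 stayed negative and were smaller in size than without the covariate. Hadhb, Nudt7 and Plin5 were also smaller in size with it, at -0.41, -0.85 and -0.44, while Pnpla2 was larger in size, at -0.54. Dgat2 was 26.3 CPM in CC-Ex replicate 4 and 54.8 CPM in CC-Ex replicate 5, beside a CC-Ex median of 52.1 CPM. The part of fibre content in these lipid differences was not tested further.

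A list of lipid genes had been chosen from CC-Sed against Sed on these same samples, so its side is not independent evidence. All 28 of its genes were measured, and 25 had a negative and 3 a positive training Log2FC, with a median of -0.45. At an unadjusted p under 0.05, 5 were lower (0.562% of all genes) and 1 was higher (0.424% of all genes). The lower ones were Nr4a3, Decr1, Acadl, Acaa2 and Dgat2. The higher one was Cyp26b1, which degrades retinoic acid (Log2FC 0.63, 95% interval 0.14 to 1.11, medians 3.74 and 5.05 CPM). The list median for monocrotaline in sedentary rats (CC-Sed minus Sed) was 1.18, and for training in saline rats 0.29. The training and monocrotaline contrasts share the 6 CC-Sed rats, so a value that is high in those rats enters both with opposite signs. For Dgat2 the pair was 1.55 for monocrotaline and -0.94 for training, and for Acadl it was 0.97 and -0.75.

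**Figure D2:**
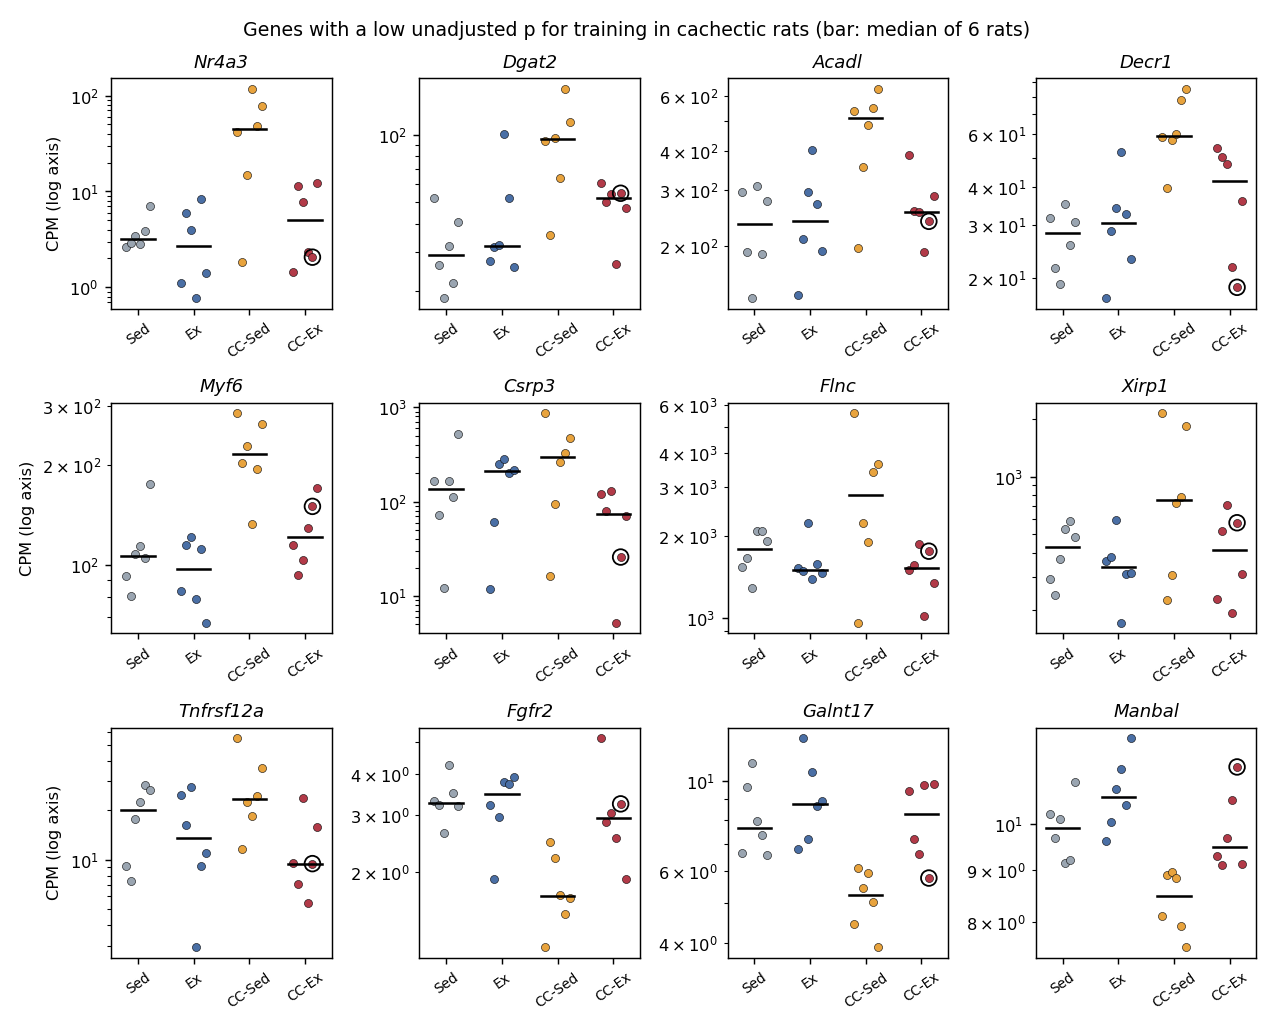
CPM per rat on a log axis for 12 genes, in the 4 groups of 6 rats, with the median as a bar and CC-Ex replicate 5 circled. For Nr4a3, Dgat2, Acadl and Myf6 every trained cachectic rat lies below the CC-Sed median, and for Fgfr2, Galnt17 and Manbal every one lies above it.

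Csrp3, Ankrd1, Flnc and Xirp1 were lower at an unadjusted p under 0.05 and are described singly, since no list holds all 4 of them. Csrp3, the muscle LIM protein of the Z-disc, was 16.2, 295 and 861 CPM in CC-Sed and 5.21, 74.6 and 131 CPM in CC-Ex (Log2FC -2.23, SE 0.83, 95% interval -4.02 to -0.45). The spread inside each group was wide, and the 3 lowest rats, CC-Ex replicates 4 and 5 and CC-Sed replicate 2, were those low in Tnnc1. Ankrd1, a titin-bound ankyrin repeat protein, had a median of 15.3 CPM in CC-Sed and 8.09 CPM in CC-Ex. Its Log2FC of -2.21 (95% interval -4.12 to -0.30) stood beside high values in CC-Sed replicates 1 and 6, at 212 and 97.8 CPM, and was -1.20 without the first of them. Without CC-Ex replicate 5 the Log2FC of Ankrd1 was -2.04, and its 95% interval, from -4.09 to 0.01, held 0. Flnc, the muscle filamin that crosslinks actin at the Z-disc, was 963, 2810.0 and 5580.1 CPM in CC-Sed and 1015, 1529.6 and 1872 CPM in CC-Ex (Log2FC -0.96, 95% interval -1.70 to -0.22). Xirp1, an actin-binding protein of damaged and remodelling fibres that partners with filamin C, had medians of 752 CPM in CC-Sed and 414 CPM in CC-Ex (Log2FC -1.24, 95% interval -2.40 to -0.07). For both Flnc and Xirp1 all 6 trained rats lay below the CC-Sed median. CC-Sed replicates 1 and 6 were the highest rats in both, at 5580 and 3654 CPM for Flnc and 2135 and 1841 CPM for Xirp1. Without CC-Sed replicate 1 the Log2FC was -0.68 for Flnc and -0.87 for Xirp1.

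Myf6, Csrp3, Ankrd1 and Xirp1 belong to a list of 29 myogenic, MEF2 and mechanosensitive factors, of which 27 were measured. These 4, all lower, were the only members at an unadjusted p under 0.05, where 0.562% of all genes were lower. In the list 14 members had a positive and 13 a negative Log2FC, and the list median was 0.00, so the list as a whole lay on no side.

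Tnfrsf12a, the receptor of the cytokine TWEAK and a mediator of muscle wasting, was 11.6, 23.5 and 55.1 CPM in CC-Sed and 5.47, 9.49 and 23.7 CPM in CC-Ex. Of the 6 trained rats 5 were below the CC-Sed median (Log2FC -1.24, SE 0.41, 95% interval -2.12 to -0.36). It was the only one of 24 NF-κB and TNF receptor genes at an unadjusted p under 0.05, where 0.562% of all genes were lower. Bcl6, a transcriptional repressor, had medians of 114 CPM in CC-Sed and 72.4 CPM in CC-Ex (Log2FC -0.82, 95% interval -1.40 to -0.25). Phlpp2, a phosphatase that acts on AKT, had a Log2FC of -0.60 (95% interval -1.04 to -0.16), with medians of 4.98 and 3.06 CPM.

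The genes named on the higher side were of low abundance. Galnt17, a glycosyltransferase-family gene, was 3.91, 5.24 and 6.10 CPM in CC-Sed and 5.77, 8.30 and 9.83 CPM in CC-Ex (Log2FC 0.67, SE 0.18, 95% interval 0.28 to 1.05). CC-Ex replicate 5 was the lowest trained rat, and without it the groups did not overlap (Log2FC 0.75, 95% interval 0.40 to 1.104). Fgfr2, a receptor of fibroblast growth factors, was 1.18, 1.68 and 2.47 CPM in CC-Sed and 1.91, 2.94 and 5.15 CPM in CC-Ex (Log2FC 0.82, 95% interval 0.29 to 1.34). Every trained rat was above the CC-Sed median for both genes. Cdkn2c, an inhibitor of the cyclin-dependent kinases of G1, had a Log2FC of 0.71 (95% interval 0.21 to 1.21), Tmem53 one of 0.54 (95% interval 0.17 to 0.91) and Susd4, a complement regulator, one of 1.17 (95% interval 0.16 to 2.18), all at medians below 3 CPM in both groups. Susd4 was 0.66 without CC-Ex replicate 4, which held 4.34 CPM. Cdkn2c was 0.57 without CC-Ex replicate 5 (95% interval 0.10 to 1.05).

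The ranges of the 2 groups were apart in 1 gene of 10851 (0.00922%), Manbal, which was named here after its values were seen. It was 7.55 to 8.97 CPM in CC-Sed and 9.11 to 11.4 CPM in CC-Ex, a Log2FC of only 0.25 (SE 0.11, 95% interval 0.02 to 0.47). No gene was apart on the lower side (0%). Without CC-Ex replicate 5 there were 43 such genes (0.396%), 9 higher (0.0829%) and 34 lower (0.313%). Galnt17 and Manbal were among the higher and Plekhh1 and Srxn1 among the lower.

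**Figure D3:**
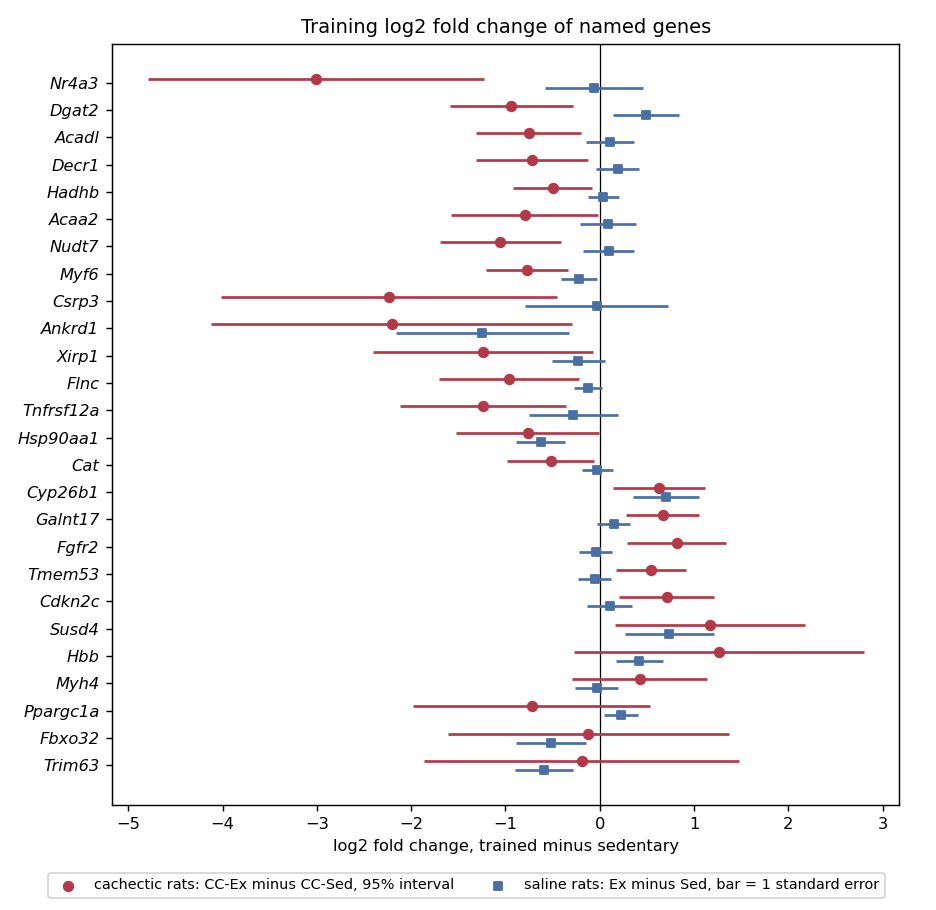
Log2FC of training for 26 named genes, in cachectic rats (circles, CC-Ex minus CC-Sed, bars are 95% intervals) and in saline rats (squares, Ex minus Sed, bars are 1 standard error). The intervals of Nr4a3, Csrp3 and Ankrd1 are the widest among the lower genes, and those of Fbxo32 and Trim63 span 0.

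Genes of the atrophy programme were split by 1 rat. Trim63 and Fbxo32 encode MuRF1 and atrogin-1, the ubiquitin ligases of muscle wasting. Trim63 was 348, 1313 and 2797 CPM in CC-Sed, and in CC-Ex 190.2 to 1248 CPM in 5 rats and 4846 CPM in replicate 5, the highest of all. Its Log2FC was -0.19 (SE 0.77, 95% interval -1.86 to 1.48) with all rats and -1.42 (SE 0.60, 95% interval -2.72 to -0.12) without that rat. Fbxo32 was 179, 1042 and 1415 CPM in CC-Sed, 86.0 to 775 CPM in 5 trained rats and 2755 CPM in replicate 5 (Log2FC -0.12, 95% interval -1.61 to 1.37, and without it -1.04, 95% interval -2.28 to 0.20). Both genes lay below the CC-Sed median in 5 trained rats and were highest of the 12 in the sixth. Eif4ebp1, the translation inhibitor 4E-BP1, had the same form, with 45.4 to 125 CPM in 5 trained rats and 438 CPM in replicate 5 (Log2FC -0.28, and -1.09 without it).

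Of 33 genes of the atrophy ligases and FoxO axis, 31 were measured, and 0 were at an unadjusted p under 0.05 with all rats, where 12 had a negative Log2FC and the list median was 0.07. Without CC-Ex replicate 5, 5 were lower at that p (4.28% of all genes in that fit) and 0 higher (1.94%), 25 of 31 had a negative Log2FC and the list median was -0.25, against 0.00 over all genes. The mean log2 CPM of this list was 7.33 in replicate 5 and 5.33 to 6.53 in the other 11 rats. The 42 proteasome genes had 0 at an unadjusted p under 0.05 with all rats, and 38 were negative, with a median Log2FC of -0.11. Without that rat 10 were lower at that p (4.28% of all genes), 37 were negative and the median was -0.40. In saline rats 39 were negative and 2 lower at that p (1.64% of all genes), with a median of -0.14. Psma1, an α-subunit of the proteasome core, was 66.7, 90.7 and 165 CPM in CC-Sed, 56.4 to 76.2 CPM in 5 trained rats and 214 CPM in replicate 5. Of 29 glucocorticoid-responsive genes 23 were measured, none was at an unadjusted p under 0.05 with all rats and 13 were negative, with a median of -0.04. Without replicate 5, 21 were negative, 3 were lower at that p (4.28% of all genes in that fit) and the median was -0.38. In none of these lists did a gene pass the adjusted test of edgeR in either fit.

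Other genes were also highest in CC-Ex replicate 5. Mt2A, a metallothionein that binds zinc and is induced by glucocorticoids, was 1.67 to 338 CPM in CC-Sed, 1.59 to 47.5 CPM in 5 trained rats and 1295 CPM in replicate 5. Its Log2FC turned from 1.22 (95% interval -1.93 to 4.38) to -2.19 (95% interval -4.68 to 0.30) without that rat. Nrip3 was 43.2 CPM in replicate 5 and 0.354 to 0.630 CPM in the other trained rats, and its Log2FC went from -0.35 to -4.37. In CC-Sed only replicates 1 and 6 were high for Nrip3, at 29.94 and 23.15 CPM, and the others held 0.279 to 2.381 CPM. Srxn1, the sulfiredoxin that restores peroxiredoxins, was 0.926, 2.17 and 5.25 CPM in CC-Sed, 0.398 to 0.706 CPM in 5 trained rats and 8.84 CPM in replicate 5. Without that rat the groups did not overlap, and the Log2FC was -2.12 (SE 0.49, adjusted p = 0.725 in edgeR). Plekhh1 had 1.23 to 2.95 CPM in CC-Sed, 0.366 to 0.792 CPM in 5 trained rats and 17.5 CPM in replicate 5 (Log2FC 1.01, and -1.36 without it). In a DESeq2 fit without replicate 5, added after the data were seen, Srxn1 and Plekhh1 were the 2 DEGs, both lower, each with an adjusted p of 0.0352. Txnrd1, the cytosolic thioredoxin reductase, was 62.1 to 125 CPM in CC-Sed and 52.3 to 67.7 CPM in the same 5 rats, with 208 CPM in replicate 5. Of 28 measured antioxidant and NRF2 genes, 1 was at an unadjusted p under 0.05 with all rats, Cat, which encodes catalase (Log2FC -0.52, 95% interval -0.98 to -0.06, medians 276 and 189.6 CPM). That is 1 of 28 on the lower side, against 0.562% of all genes, and without replicate 5 it was 5, against 4.28%.

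**Figure D4:**
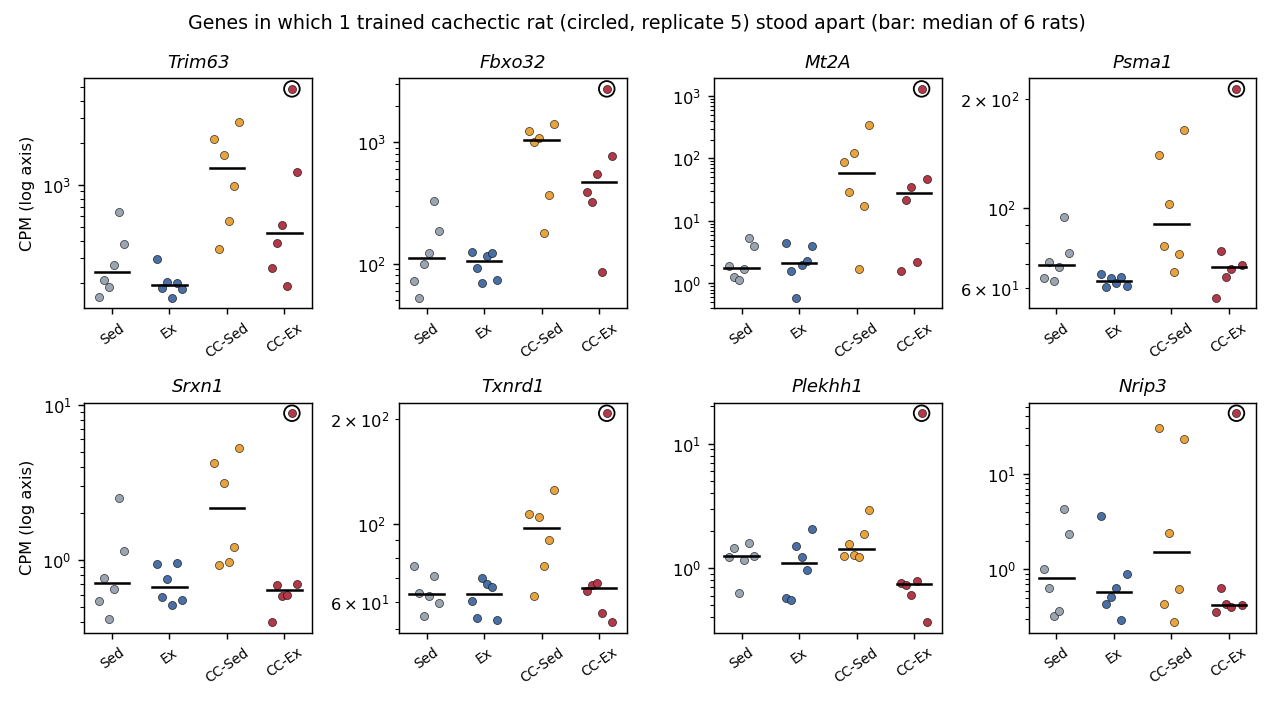
CPM per rat on a log axis for 8 genes in the 4 groups of 6 rats, with the median as a bar and CC-Ex replicate 5 circled. In each gene replicate 5 is the highest of the 12 cachectic rats, while the other 5 trained rats lie at or below the CC-Sed median.

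Heat shock genes lay mostly on the lower side with all rats. Of 27 chaperone genes 25 were measured, 24 had a negative Log2FC, and the median was -0.26. Hsp90aa1, the inducible HSP90, was the 1 gene at an unadjusted p under 0.05, where 0.562% of all genes were lower. It had medians of 118 CPM in CC-Sed and 77.3 CPM in CC-Ex (Log2FC -0.77, 95% interval -1.52 to -0.01). It was -0.41 without CC-Sed replicate 4, which held 298 CPM. Without CC-Ex replicate 5 there were 6 genes at that p, all lower (4.28% of all genes). Among them were Hsp90aa1 (-1.02, 95% interval -1.74 to -0.31) and the small heat shock protein Hspb1 (-0.80, 95% interval -1.47 to -0.13). The co-chaperone Bag3, which clears damaged filamin, was another (-0.66, 95% interval -1.18 to -0.14). The same list in saline rats had 5 lower (1.64% of all genes in that test) and 1 higher (1.85%) at that p. Its median there was -0.10, and Hsp90aa1 was -0.63 (SE 0.26). The saline rats share no animal with the cachectic ones.

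The lists usually tied to endurance training showed no gene past the adjusted test. Of 73 oxidative phosphorylation genes 0 were at an unadjusted p under 0.05 in either direction, and the median Log2FC was -0.04 with all rats and 0.09 without replicate 5. The 22 measured genes of the TCA cycle also had 0, with 8 positive and a median of -0.05 with all rats, and 16 positive and a median of 0.05 without replicate 5. Ppargc1a, which encodes PGC-1α, was 10.7, 35.6 and 68.1 CPM in CC-Sed and 3.26, 20.4 and 52.4 CPM in CC-Ex (Log2FC -0.72, 95% interval -1.98 to 0.53). The interval ran past -1 and not past 1. None of the other 27 measured PGC-1, PPAR and ERR regulators was at an unadjusted p under 0.05, nor was any of 26 angiogenesis and hypoxia genes.

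Fibre-type genes spread over a wide range within both groups. Tnni1, the slow troponin I, was 11.2, 705 and 1293 CPM in CC-Sed and 0.915, 465 and 838 CPM in CC-Ex, with a Log2FC of -0.66 and an SE of 1.27. Tnnc1 had a Log2FC of -0.44 with a 95% interval from -3.33 to 2.44, which holds differences past the DEG threshold in either direction. Of 9 measured slow-fibre genes 8 had a negative Log2FC, with a median of -0.44, and 1 was lower at an unadjusted p under 0.05 (0.562% of all genes). Without CC-Ex replicate 5, 7 were negative and the median was -0.18, with 1 lower at that p (4.28% of all genes in that fit). Of 13 measured fast-fibre genes 12 had a positive Log2FC, with a median of 0.34, and none was at an unadjusted p under 0.05. Myh4, the fastest myosin, had medians of 54927 and 92472 CPM (Log2FC 0.42, 95% interval -0.29 to 1.13), and all 6 trained rats were above the CC-Sed median. Pvalb, the calcium buffer of fast fibres, had medians of 627 and 1037 CPM (Log2FC 0.89, 95% interval -0.61 to 2.39). It was 0.30 without CC-Ex replicate 4, which held 4281 CPM.

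Matrix and blood genes did not pass the test either. Of 51 measured extracellular matrix genes 38 had a negative Log2FC, with a median of -0.12, and 0 were at an unadjusted p under 0.05. When CC-Ex replicate 5 was left out, 27 were negative and 24 positive, with a median of -0.02 and 1 lower at that p (4.28% of all genes in that fit). Col1a1 and Col3a1, the fibrillar collagens, had Log2FCs of -0.45 (95% interval -1.74 to 0.84) and -0.38 (95% interval -1.72 to 0.96), and CC-Ex replicate 5 was the lowest of the 12 rats in both, at 26.6 and 32.5 CPM. The 3 hemoglobin genes in the table, Hbb, Hba-a1 and Hba-a3, had Log2FCs of 1.26, 1.28 and 1.38 (SE 0.71, 0.67 and 0.68). Hbb was 22.4, 51.6 and 187 CPM in CC-Sed and 13.2, 142 and 425 CPM in CC-Ex, and CC-Ex replicate 5 was the lowest of all. Without it the Log2FCs were 1.51, 1.52 and 1.62 (SE 0.60, 0.56 and 0.58). These transcripts come from red cells and their precursors, and the blood left in the muscle was not tested. Near-identical copies of the globin genes can share reads, so the values of single copies are uncertain.

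**Figure D5:**
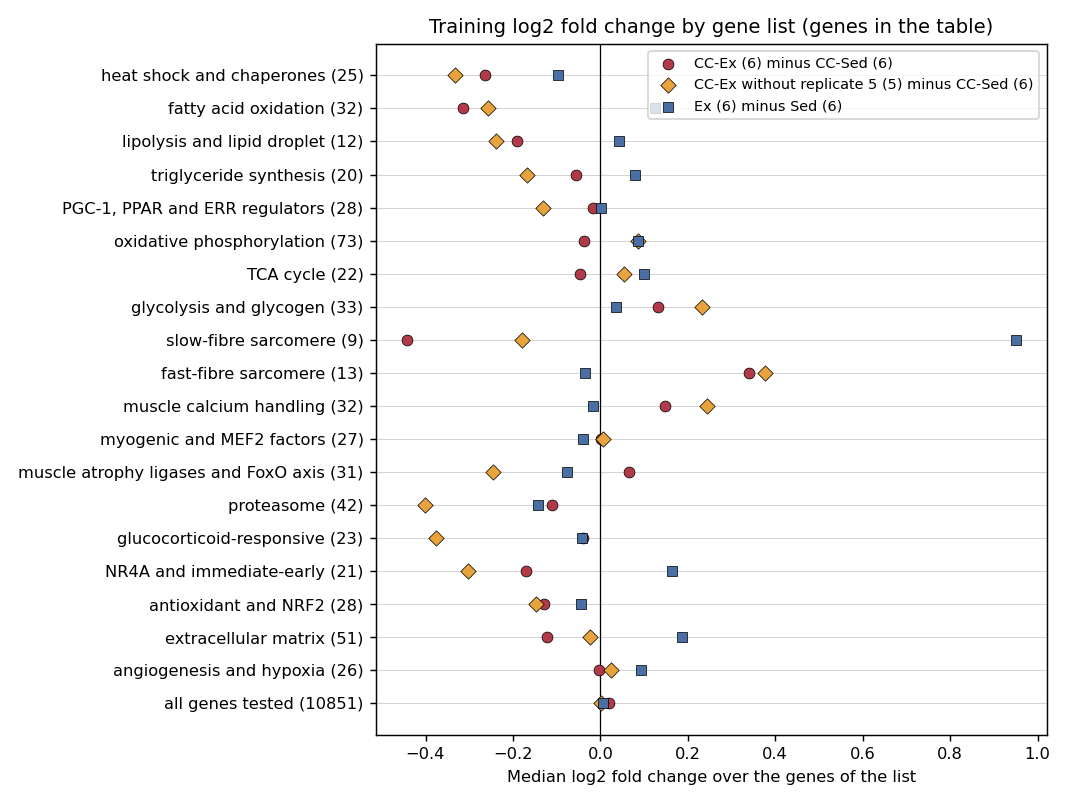
Median Log2FC of training over the measured genes of 19 gene lists and of all genes, with all cachectic rats (circles), without CC-Ex replicate 5 (diamonds) and in saline rats (squares). Proteasome, glucocorticoid-responsive and atrophy genes lie further to the negative side without replicate 5. Fatty acid oxidation, like slow-fibre genes and several other lists, lies on opposite sides of 0 in cachectic and saline rats.

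Whether training acted differently in cachectic and in saline rats was tested as an interaction over all 24 rats. No gene passed an adjusted p under 0.05 in edgeR (0%), DESeq2 or limma-voom, and 154 genes (1.42%) were at an unadjusted p under 0.05 in edgeR, 56 higher (0.516%) and 98 lower (0.903%). DESeq2 gave 197 and limma-voom 474 at that p, and edgeR without CC-Ex replicate 5 gave 489 (4.51%). The smallest p was that of Phlpp2, whose Log2FC was -0.60 in cachectic and 0.34 in saline rats, an interaction of -0.95 (SE 0.24). Micall2, which links membrane traffic to actin, was next, at -0.50 and 0.42, an interaction of -0.93 (SE 0.25). For Nr4a3 the interaction was -2.95 (SE 1.00), for Dgat2 -1.44 (SE 0.50) and for Fgfr2 0.85 (SE 0.30). Nr4a3, Dgat2 and Fgfr2 were each among the genes with the smallest p for training in cachectic rats. That contrast is part of the interaction, so these values are not independent of how the genes were picked. In the fatty acid oxidation list 29 of 32 Log2FCs were negative in cachectic rats, while 28 of 32 were positive in saline rats, with medians of -0.31 and 0.13. The slow-fibre list had the same form and wider medians. Of its 9 measured genes 8 were negative in cachectic rats and 8 positive in saline rats, with medians of -0.44 and 0.95. The part of fibre content in the opposite signs was not tested. Over all 10851 genes the training Log2FCs of the cachectic and the saline rats had a Pearson's r of 0.01 and a Spearman's rho of 0.00, and 0.22 and 0.20 without CC-Ex replicate 5. These describe genes, which are not independent replicates, and the 2 contrasts share no rat.

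Prodh, the mitochondrial proline oxidase, had a training Log2FC of -0.27 (SE 0.38, 95% interval -1.102 to 0.55). Its medians were 4.67 CPM in Sed, 5.10 CPM in Ex, 30.3 CPM in CC-Sed and 20.4 CPM in CC-Ex, with 4 of 6 trained rats below the CC-Sed median. Of 12 measured genes from a list of transcripts shared by the monocrotaline contrasts, also chosen on these samples, 7 had a positive and 5 a negative training Log2FC, with a median of 0.04 and none at an unadjusted p under 0.05. Without CC-Ex replicate 5, 3 were higher at that p (1.94% of all genes), Hbb and Hba-a1 among them.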

How the data were processed

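The authors trimmed the reads with Trim Galore, quantified them with Salmon against the rat Ensembl annotation (mRatBN7.2) and summarised them per gene. The deposited table holds the resulting estimated counts as whole numbers, none under 10, for 10851 genes in 24 libraries. It had been filtered by the authors, so genes silent in any rat were not analysed here. Genes with a blank (13) or shared symbol (19 symbols) were kept under their Ensembl identifiers. CPM used TMM-scaled totals and log2 CPM a prior count of 2. CC-Ex was tested against CC-Sed on these 12 rats alone with edgeR 4.0.16 (quasi-likelihood, R 4.3.3), because the saline rats varied less, and p-values were adjusted over all genes (Benjamini-Hochberg). DESeq2 1.42.0, limma 3.58.1, other scalings, filters, covariates and each left-out rat were alternatives. Each rat gave 1 library, and the fits were tested on simulated data. Named genes are members of the lists, genes with the smallest p or largest Log2FC, and genes moved most by CC-Ex replicate 5. The groups, gene lists and tests were chosen with earlier results of these data known. RefSeq promoters are on GRCr8, another build than that of the counts, and no other coordinates are given. No 2 libraries were duplicates: the smallest chi-square per degree of freedom over 66 pairs was 83.1. Replicate numbers did not pair the rats.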

Additional observations from a re-analysis of the deposited data

Results flagged for a closer look

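A gap test for 1 rat apart from the other 5 was run in each cachectic group for the 49 named genes, the first principal component and the total count, 102 tests in all, and it marked 11. Chance marks about 1 in 20 groups whose values did not choose them. Here some genes were named because CC-Ex replicate 5 moved them most (Nrip3, Mt2A and Plekhh1) or because of their values without it (Plekhh1, Srxn1 and Txnrd1), so the tally is a description and is not to be read against that rate. In 6 of the 11 the rat was CC-Ex replicate 5: at 85.1 on the first principal component (other CC-Ex rats -35.8 to -5.33), 214 CPM for Psma1 (others 56.4 to 76.2), 43.2 CPM for Nrip3 (0.354 to 0.630), 17.5 CPM for Plekhh1 (0.366 to 0.792), 8.84 CPM for Srxn1 (0.398 to 0.706) and 208 CPM for Txnrd1 (52.3 to 67.7). CC-Ex replicate 4 was low for Dgat2, at 26.3 CPM (others 46.9 to 61.1), and for Micall2, at 0.84 CPM (others 1.24 to 1.53). CC-Ex replicate 3 was high for Ankrd1, at 44.5 CPM (others 3.79 to 8.76). In CC-Sed, replicate 3 was low for Cdkn2c at 0.775 CPM (others 1.04 to 1.23) and replicate 2 was low for the collagen gene Col1a1 at 59.9 CPM (others 173 to 313). The interaction test marked no gene.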

How the results depend on the processing

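The count of DEGs was 0 under every alternative chosen at the start, including each rat left out in turn (0 to 0), and the count for the interaction was 0 under every alternative run, also with each of the 24 rats left out (0 to 0). The one exception was DESeq2 without CC-Ex replicate 5, added after the data were seen, which gave 2 DEGs, Srxn1 (-2.11) and Plekhh1 (-1.36). The count of genes at an unadjusted p under 0.05, 107, was 57 with a mean of at least 5 CPM, for which fewer genes were tested, 50 with the library number as a covariate, 234 with all 24 rats in 1 fit and 633 with limma-voom and sample weights. It ran from 60 (without CC-Sed replicate 6) to 675 (without CC-Ex replicate 5) when 1 rat was left out, with CC-Sed replicate 2 left out giving 285 and CC-Sed replicate 1 giving 65. The fits without CC-Ex replicate 5 that were added after the data were seen gave 835 (DESeq2), 972 (limma-voom) and 1491 (with all other 23 rats). The cause of these shifts was not tested.

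With the replicate block the unadjusted count was 71. The numbers did not pair the rats: same-numbered rats had a mean correlation of -0.23 of their deviations, from -0.59 to 0.37, with 1 of 6 over 0.1.

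Of 49 named genes, 41 kept the sign of their Log2FC in all alternatives. Mt2A (1.22) was -1.12 with the replicate block, -1.52 with the slow-fibre covariate, -1.50 with limma-voom, and without CC-Ex replicate 5 -2.18 (DESeq2), -1.68 (limma-voom) and -2.18 (all other 23 rats). Plekhh1 (1.01) was -0.65, -0.95 and -1.25 in the same 3, and without replicate 5 -1.36 (DESeq2), -1.33 (limma-voom) and -1.36 (all other 23 rats). With the library number as a covariate, Trim63 was 0.025 and Txnrd1 0.041. Tnnc1 was 0.034 with limma-voom, and without replicate 5 Tnnc1 was 0.32 and Tnni1 0.22 with limma-voom. With 1 rat left out the Log2FC ran from -2.19 to 2.17 for Mt2A, -1.36 to 1.25 for Plekhh1, -4.37 to 0.47 for Nrip3, -1.04 to 0.12 for Fbxo32 and -1.42 to 0.13 for Trim63. It moved by over 1.5 times with no change of sign for others, among them Plin5 (-1.19 to -0.39), Ppargc1a (-1.18 to -0.45), Hbb (0.79 to 1.80), Prodh (-0.58 to -0.10) and Col1a1 (-1.01 to -0.23). The group difference on the first component was -4.21 with a prior count of 0.5 and ran from -24.0 to 3.04 with 1 rat left out, turning positive without CC-Sed replicates 1 or 6 and without CC-Ex replicates 1 or 4. The difference in total count, 2332608, ran from 1524787 to 4031650 counts, and its exact permutation p was 0.0303 without CC-Sed replicate 1 and 0.208 or more otherwise. Depth was 37816239 counts or more in each rat.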
